A study of Mus musculus with 39 samples.

Results

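The 10 genes described here encode the machinery that starts a cell cycle: the D-type cyclins Ccnd1, Ccnd2 and Ccnd3, cyclin E1 (Ccne1), the kinases Cdk4, Cdk6 and Cdk2, and the retinoblastoma family Rb1, Rbl1 and Rbl2. They were chosen by name, and are 10 of the 53379 genes in the count tables. RNA was sequenced with Smart-Seq2 from small pools of cells that were sorted out of the neocortex of mouse embryos, at either embryonic day (E) 13 or E16. Every embryo carried the Mosaic Analysis with Double Markers (MADM) cassettes MADM-7-GT and MADM-7-TG on chromosome 7 and Emx1-Cre, on a mixed C57BL/6J, CD1 background (strain label CD1), and no library came from mice without these alleles. Emx1 drives Cre in dorsal forebrain progenitors, so the sort was meant to take cells of that lineage. Marker genes of other cell types, such as red blood cells and meninges, also had counts in some libraries, as given below. In red (tdT+) and green (GFP+) cells both copies of chromosome 7 stem from the same parent (uniparental disomy), in opposite directions, and yellow cells (GFP+/tdT+) hold a copy from each parent.

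Of 39 libraries, 36 had at least 40% uniquely aligned reads and were used: 5 yellow, 5 with maternal and 5 with paternal disomy at E13 (6 embryos), and 7 of each at E16 (7 embryos). At E13 the yellow library of replicate 3 and the red and green libraries of replicate 5 were left out. A single embryo was a replicate. The labels do not name the parent of a colour. By the rule used here, paternal disomy was red in replicates 1 to 3 and green from replicate 4 up, the direction in the study's sample sheet for 26 of 26 singly coloured libraries. Cdkn1c, a cell-cycle inhibitor expressed from the maternal chromosome 7, was higher in the maternal than in the paternal library of 12 of 12 embryos. Within replicates 1 to 3, or within replicates 4 and up, colour and disomy cannot be told apart.

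D-type cyclins are made in response to growth signals and bind Cdk4 or Cdk6, whose inhibitor proteins are the Ink4 and Cip/Kip families. The active kinases phosphorylate the retinoblastoma proteins, which otherwise hold E2F transcription factors in check. Free E2F factors switch on cyclin E and the genes of DNA replication, and cyclin E with Cdk2 phosphorylates the retinoblastoma proteins further. In the embryonic neocortex, radial glia and intermediate progenitors divide, while the projection neurons they give rise to have left the cell cycle.

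Gene counts per library ran from 472924 to 5205788 (median 3871672 at E13 and 3307457 at E16). A level is given as a count scaled to a common total of gene counts (CPM). The smallest level taken as measurable, 3 counts, was worth 0.576 CPM in the deepest and 6.34 CPM in the shallowest library, a floor for counting error only, since without molecular identifiers PCR copies of a molecule are counted again. Radial glia markers were present at both ages, with a median summed level of 2048 CPM at E13 and 1900.2 CPM at E16 over 10 genes. Their sum hid opposite moves. Median levels fell for Pax6 (304 to 106 CPM), Sox2 (74.6 to 6.94), Hes1 (141 to 27.0), Vim (541 to 152) and Nes (33.3 to 1.77). They rose for Fabp7 (806 to 1123 CPM), Slc1a3 (40.5 to 94.6) and Ptprz1 (35.2 to 210). Hes5 and Hopx had a median of 0 at both ages. The 6 intermediate progenitor markers summed to a median of 1085 CPM at E13 and 376 CPM at E16, and the 10 projection neuron markers to 5493 CPM at E13 and 8387 CPM at E16. Within the projection neuron list, median levels fell for Tbr1 (444 to 222 CPM), Bcl11b (106 to 73.0) and Fezf2 (51.5 to 41.0). The other markers of that list rose, among them Stmn2 (1106 to 2362 CPM) and Tubb3 (2014 to 2611). In pools of cells, fewer cells of a type and less RNA per cell cannot be told apart. The library from E16 red replicate 5 (maternal disomy) stood apart for several of the genes, with 77.9 CPM of Ccnd1, 996 CPM of Cdk6 and 3 counts of Rb1. In that library 18.5% of the unique reads could not be given to a single gene (E16 median 4.19%). It had 8803 genes with a count, and the study did not use it. Values without it are given where they matter.

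The unstranded count leaves out a read that lies in exons of genes on opposite strands, and 7 of the 10 genes share exon sequence with such a neighbour and lost counts to it. When the counts of both stranded columns were added, 63.2% of the strand-summed counts of Ccnd1 were not in the unstranded count, the highest share among the members. The share was 59.6% for Ccnd3, 53.9% for Rbl2, 24.6% for Ccnd2 and 17.4% for Rb1. For Cdk4 it was 4.68% and for Cdk6 1.91%, and for Cdk2, Ccne1 and Rbl1 it was 0. Among 11472 genes with a mean count of 10 or more, 7961 lost none and 1221 (10.6%) lost over 10%.

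All 3 D cyclins were among the genes with over 10% not counted. Ccnd1 (ENSMUSG00000070348.5, GRCm38 chromosome 7, start 144929931, end 144939925, minus strand) shares 1100 of its 4709 exon bases with LTO1 on the plus strand. Ccnd3 shares 361 bases with Bysl, and Rbl2 (chromosome 8, start 91070057, end 91123844, plus strand) shares 693 with Aktip and 892 with Gm45464. For Ccnd2 (chromosome 6, start 127125162, end 127152193, minus strand), 10128 counts were added, the full strand-summed count of Gm43126, an antisense gene over its end. The libraries carry no strand information, so a read in shared sequence cannot be told apart between partners, and the strand-summed count of a gene can include reads of its neighbour. The unstranded count is used below unless the strand-summed count is named.

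**Figure D1:**
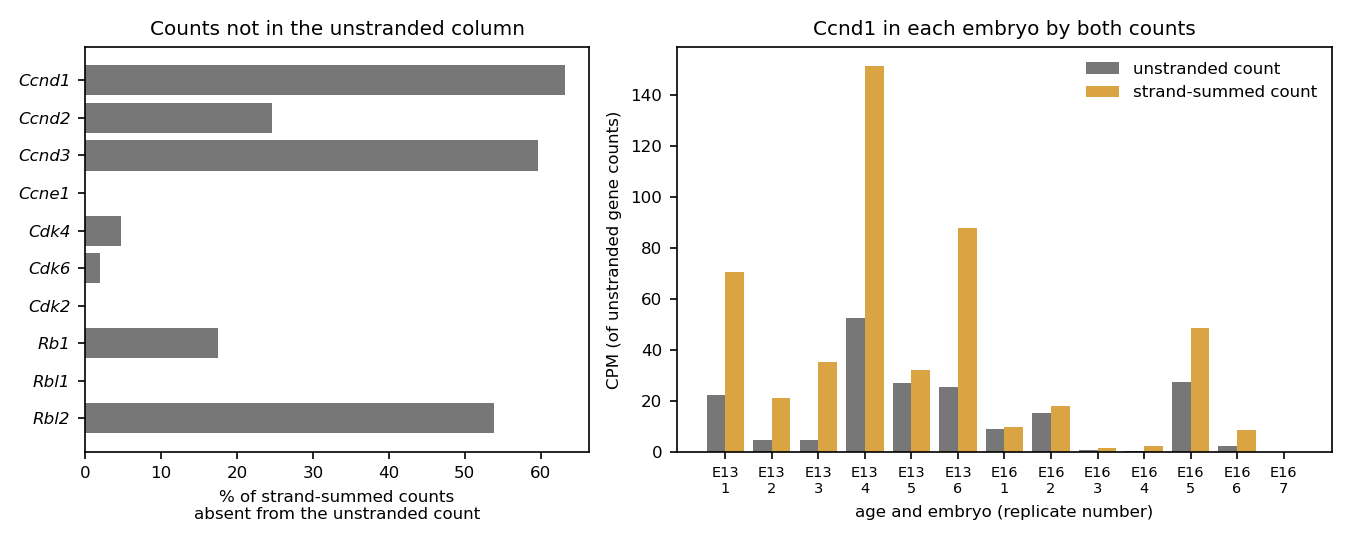
Left: bars give, for each of the 10 genes, the % of strand-summed counts over 36 libraries that were absent from the unstranded count, from 0 for Ccne1, Cdk2 and Rbl1 to 63.2% for Ccnd1. Right: bars give the CPM of Ccnd1 in each of 13 embryos by either count; at E13 the strand-summed bar stands well above the unstranded one in 5 of 6 embryos, and at E16 both bars are low in most embryos.

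RefSeq promoter windows (GRCm38, 250 bases before to 50 after a start site) were at hand for 7 of the 10 genes, in 8 windows, and Ccnd1, Ccnd2 and Rb1 had no entry. They were searched on both strands for 3 E2F-type 8-mers, TTTCGCGC, TTTGGCGC and TTTCCCGC, since E2F factors are the partners of the retinoblastoma proteins, and for TTTGAA, the core of the cell cycle genes homology region (CHR). Of 32851 promoter windows of mouse genes, 606 (1.84%) held an E2F-type 8-mer and 17.9% held TTTGAA. Among the members, a window of Cdk2 and one of Rbl1 held an E2F-type match, and that of Rbl2 held TTTGAA. The stretches around the E2F-type matches are shown because they are the places in these windows where the letters of an E2F site occur, before a kinase gene and a retinoblastoma family gene. Capitals mark the 8-mer, which is a match of letters and not a measured site. The Cdk2 stretch runs from base -160 to base -101 before the start site at chr10:128705152-128705211 (minus strand), with TTTCCCGC on the opposite strand from base -140. The Rbl1 stretch runs from base -60 to base -1 at chr2:157204535-157204594 (minus strand), with TTTCGCGC from base -18.
Cdk2: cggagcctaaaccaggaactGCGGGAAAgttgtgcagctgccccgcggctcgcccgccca
Rbl1: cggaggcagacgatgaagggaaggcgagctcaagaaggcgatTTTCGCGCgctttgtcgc

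To compare levels between genes, counts were divided by exon length and scaled to the same total (TPM). Cdk4 was by far the most abundant member at either age, at 970.3 ± 226 TPM at E13 (SD, n = 6 embryos) and 709.5 ± 172 TPM at E16 (SD, n = 7). Ccnd2 followed at 112 ± 46.3 TPM at E13 and 34.8 ± 7.60 TPM at E16. The lowest Cdk4 level at an age lay above the highest level of every other member. At E13, Rb1 (44.3 ± 27.3 TPM), Ccne1 (29.0 ± 11.0), Cdk6 (17.7 ± 13.6) and Ccnd1 (12.1 ± 8.94) came next, then Cdk2 (7.35 ± 5.92), Rbl2 (6.16 ± 5.34), Ccnd3 (4.78 ± 3.19) and Rbl1 (2.94 ± 2.72). From Ccnd2 down, each member's range over E13 embryos overlapped that of the next in this order. At E16 the order after Ccnd2 was Rb1 (31.0 ± 8.78 TPM), Cdk6 (28.8 ± 20.7), Rbl2 (5.58 ± 5.44), Ccnd1 (4.28 ± 5.70), Cdk2 (2.39 ± 2.02), Ccne1 (1.91 ± 2.21), Ccnd3 (1.43 ± 1.12) and Rbl1 (0.457 ± 0.455). Neighbours in this order overlapped too. The order depended on the count. By the strand-summed count, Ccnd1 stood at 31.4 ± 21.2 TPM at E13, above Ccne1 (25.7 ± 9.55) and Cdk6 (16.3 ± 12.8), and Ccnd3 at 10.7 ± 7.17 TPM, above Rbl2 (8.46 ± 4.04) and Cdk2 (6.48 ± 5.12). At E16 it placed Ccnd3 (2.71 ± 1.90 TPM) above Cdk2 (2.14 ± 1.83) and Ccne1 (1.68 ± 1.94). The other places were the same by both counts. The low members were not found in every library: Rbl1 had a count in 18 of 36, Ccnd1 and Ccne1 in 25, Cdk2 in 28, Rbl2 in 30, Ccnd3 in 33 and Cdk6 in 34, while Ccnd2, Cdk4 and Rb1 had counts in all.

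Ccnd2 was the main D cyclin RNA in every embryo. Of the counts per exon length of the 3 D cyclins, Ccnd2 made up 73.5% to 95.5% at E13 and 72.6% to 99.6% at E16. The strand-summed count lowered the Ccnd2 share to between 64.7% and 87.3% at E13 and between 65.8% and 95.0% at E16. By that count, Ccnd1 held 8.59% to 28.6% at E13 and 0 to 33.9% at E16. The highest Ccnd1 share at E16 came from the embryo of the library that stood apart, replicate 5, and Ccnd3 held at most 10.5% in any embryo. These shares are descriptions and were not tested.

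**Figure D2:**
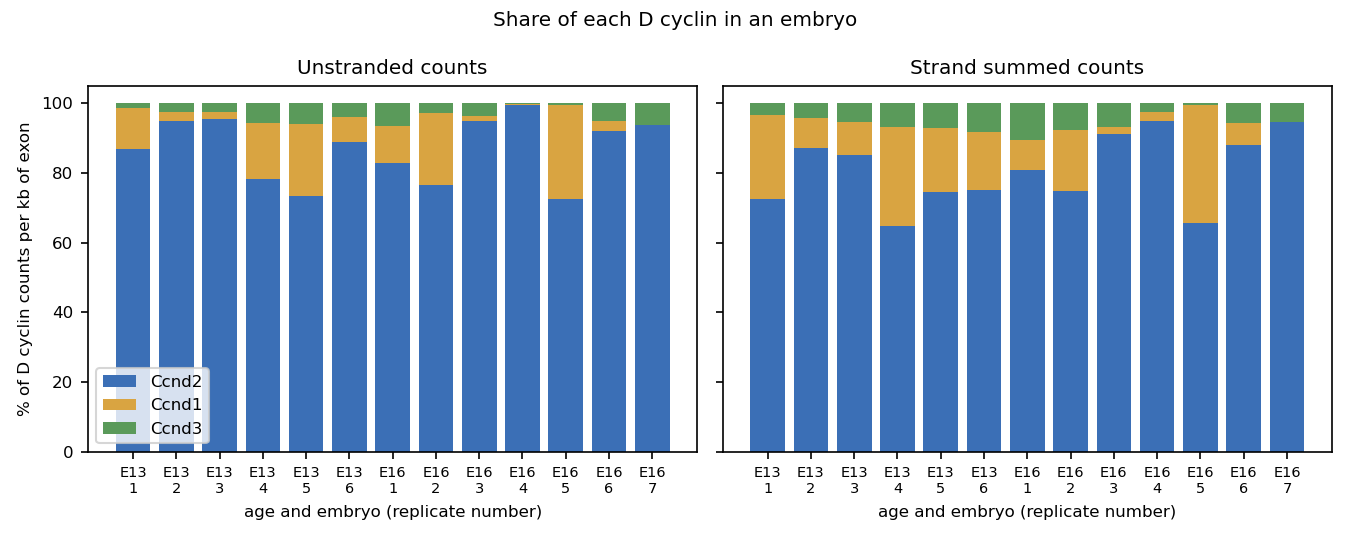
Stacked bars give the % of D cyclin counts per kb of exon held by Ccnd2, Ccnd1 and Ccnd3 in each of the 13 embryos, by unstranded (left) and strand-summed (right) counts. Ccnd2 is the tallest block in all 13 bars of either panel, at 64.7% or more.

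The first comparison asked how the 10 genes differ between E16 and E13, with the counts of an embryo's libraries summed (6 embryos against 7). The cyclins Ccnd2 and Ccne1 were lower at E16, and no member was higher past the threshold. edgeR's quasi-likelihood test called 2 of the 10 members, against 524 of 13776 genes (3.80%), of which 265 (1.92%) were higher and 259 (1.88%) lower at E16. The median log2 change of the members was -1.45, against 0.03 over all genes tested, and 9 of the 10 were lower in sign.

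Ccnd2, the D cyclin that leads in these cells, ran from 193 to 621 CPM at E13 (median 382) and from 89.3 to 155 CPM at E16 (median 112). Every E16 embryo lay below every E13 embryo, and the lowest E13 embryo, replicate 5, was represented by its yellow library alone. The log2 change was -1.58 (SE 0.25, edgeR adjusted p = 0.0020), a fall of 2.99-fold. It was called in 24 of 28 alternative analyses (log2 change -1.99 to -1.46, adjusted p 6.26e-08 to 0.171). The 4 without a call used fewer samples: replicates 1 to 3 alone (-1.52, adjusted p = 0.0540), replicates 4 and up (-1.67, 0.147), yellow libraries (-1.55, 0.171) and maternal libraries (-1.59, 0.142).

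Cyclin E1, the partner of Cdk2, showed the largest log2 change among the members. Ccne1 (chromosome 7, start 38097984, end 38107534, minus strand) ran from 9.48 to 46.0 CPM at E13 (median 28.7) and from 0 to 5.48 CPM at E16 (median 1.27). No E16 embryo reached the lowest E13 level, 3 of 7 E16 embryos had 3 counts or fewer, and their fitted change rests on few reads. The log2 change was -3.87 (SE 0.91, edgeR adjusted p = 0.0279). It was called in 18 of 28 alternatives (log2 change -6.24 to -1.61, adjusted p 8.05e-05 to 0.926). Among the losses were those without E13 replicate 1 (adjusted p = 0.0558), E13 replicate 4 (0.0660), E16 replicate 1 (0.0517) or E16 replicate 3 (0.0520), the fit with replicate number as a block (0.0775), and yellow libraries alone (-1.61, 0.926). Separation of all E16 from all E13 embryos downward was seen for these 2 members, and for 1.88% of the genes tested.

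The other D cyclins were lower in value but did not pass. Ccnd1 ran from 4.64 to 52.3 CPM at E13 (median 23.8) and from 0 to 27.4 CPM at E16 (median 2.40). The ranges overlapped, with E16 replicate 5 the highest at E16, and the log2 change was -1.37 (SE 1.07, edgeR adjusted p = 0.536). Without the library E16 red replicate 5 it was -2.38 (0.229), and by the strand-summed count -2.22 (0.188). With strand-summed counts and only the 32 libraries that the study used, the Ccnd1 change was -3.08 with an adjusted p of 0.0294. This was the single alternative of 28 that called Ccnd1 (adjusted p 0.0294 to 0.992), and by it 2.71% of genes were called lower. Ccnd3 ran from 5.03 to 33.7 CPM at E13 and from 0.150 to 10.3 CPM at E16, and its change was -1.67 (SE 0.80, 0.266).

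The kinases overlapped between ages. Cdk4 ran from 788 to 1388 CPM at E13 (median 1289) and from 682 to 1221 CPM at E16 (median 834), with a log2 change of -0.36 (SE 0.17, edgeR adjusted p = 0.257). Cdk6, the other partner of the D cyclins, was the one member with a higher value at E16, from 13.5 to 208 CPM at E13 (median 88.3) and from 39.2 to 387 CPM at E16 (median 133). The Cdk6 change was 0.89 (SE 0.53, adjusted p = 0.388), and 0.32 (0.766) without E16 red replicate 5. Cdk2 ran from 4.36 to 40.8 CPM at E13 and from 0.850 to 13.8 CPM at E16, with a change of -1.53 (SE 0.75, 0.274).

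No retinoblastoma family gene passed. Rb1, the founding member, ran from 37.1 to 173 CPM at E13 (median 83.2) and from 46.5 to 102 CPM at E16 (median 65.7), with a log2 change of -0.38 (SE 0.32, edgeR adjusted p = 0.579). Rbl1, which encodes p107, ran from 0.338 to 13.9 CPM at E13 and from 0 to 2.70 CPM at E16, where 3 of 7 embryos had 3 counts or fewer, with a change of -2.61 (SE 1.15, 0.221). Rbl2, which encodes p130 and is known from cells that have left the cycle, ran from 3.48 to 38.2 CPM at E13 and from 1.13 to 31.5 CPM at E16. Its log2 change was -0.14 (SE 0.82, 0.950) by the unstranded and 0.43 (0.724) by the strand-summed count and its sign turned in 11 of 28 alternatives.

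**Figure D3:**
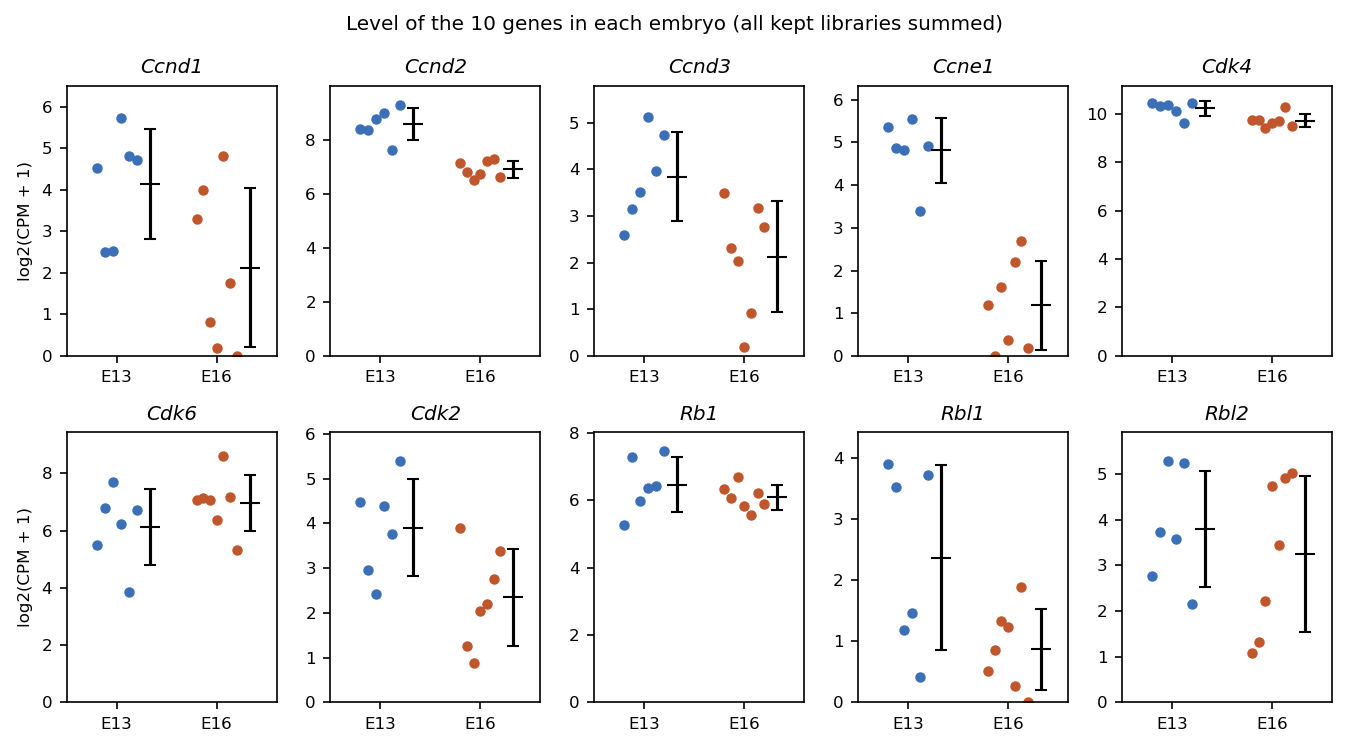
Each point is an embryo (6 at E13, 7 at E16) with its kept libraries summed, the y axis is log2(CPM + 1) from 0, and the bar beside the points is the mean with its SD. Ccnd2 and Ccne1 are the genes whose E13 and E16 points do not overlap.

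Of 58 other genes of the pathway, in 6 lists, 55 were tested, and 12 were lower and 1 higher at E16. The lower genes were mostly E2F targets of DNA replication, of which 10 of 16 passed and all 16 were lower in sign (median log2 change -2.23). Over all genes tested 1.88% were called lower, and 6681 of 13776 were lower in sign. The lists were chosen with earlier results of these data known, so these counts are descriptions and no test of a theme. Cdc45, a part of the replicative helicase, had a mean level of 51.5 ± 20.3 CPM over the 6 E13 embryos (SD) and of 3.00 ± 1.63 CPM over the 7 E16 embryos, and its log2 change was -3.96 (edgeR adjusted p = 5.01e-04). Mcm2, a helicase subunit, had -2.35 (5.25e-04), Tyms, which makes thymidylate, -1.65 (5.86e-04), and Rrm2, a ribonucleotide reductase subunit, -2.32 (0.00104). Of 10 other activators, 1 was lower, cyclin A2 (Ccna2, -2.58, 0.00125). Of 9 E2F and DP factors tested, 1 was lower, E2f2, at 4.73 to 43.7 CPM in E13 embryos and at 0 in 6 of 7 E16 embryos. Of 9 genes of cyclin turnover, the deubiquitinase gene Usp2 was higher (5.11, 0.0349), from at most 2.48 CPM at E13 to between 2.10 and 88.3 CPM at E16. None of 5 inhibitors tested (7 listed) passed. Nor did any of the 6 genes of the last list, Lin9, Lin37, Lin52, Lin54, Rbbp4 and Mybl2.

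Marker levels moved with age beside these genes. Single markers of radial glia and of projection neurons fell or rose. The summed intermediate progenitor markers were lower and the summed projection neuron markers higher at E16, as given above. Summed markers of 5 other cell types had lower medians at E16 as well. For 4 meningeal markers the median was 112 CPM at E13 (0 to 495) and 1.32 CPM at E16 (0 to 41.3), and for 5 Cajal-Retzius markers 179 CPM (26.3 to 676) and 63.0 CPM (0 to 198). For 4 markers of oligodendrocyte precursors it was 7.29 CPM (0 to 51.3) and 0 (0 to 440.8). The 6 interneuron markers ran from 2.07 to 141 CPM at E13 and from 0 to 38.2 CPM at E16, where the median was 0. For 5 red blood cell markers it was 49.1 CPM (0.228 to 50525) and 4.77 CPM (0.460 to 6189). Their part in the differences was not tested.

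The second comparison set singly coloured cells, maternal and paternal together, against yellow cells of the same embryos, with the embryo as a block. At E13, Ccnd2, Cdk4, Cdk6, Cdk2 and Ccne1 had higher values in singly coloured than in yellow cells in 4 of 4 embryos that had all 3 colours. This count of 5 of 10 members stood against 7.61% of the genes tested. With only the libraries that the study used, it was the same 5 members in 3 of 3 embryos, against 11.7% of the genes, and by the strand-summed count Ccnd1 joined them (6 of 10, against 7.64%). No member passed edgeR's threshold, nor did any of 11786 genes (0%), with 4 members and 801 genes at an unadjusted p under 0.05. DESeq2 called 3 members, Ccnd2, Cdk4 and Cdk6, all higher, and 547 genes (4.64%), of which 195 (1.65%) were higher.

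Ccnd2 had 174, 237, 265, 193 and 362 CPM in the yellow libraries of replicates 1, 2, 4, 5 and 6 at E13. In maternal libraries of replicates 1, 2, 3, 4 and 6 it had 583, 311, 481, 774 and 597 CPM, and in paternal ones 339.9, 450.0, 418, 563 and 931 CPM. Yellow libraries overlapped the others only through replicate 6, which lay above the lowest maternal and the lowest paternal library. The log2 difference was 1.07 (SE 0.28), with an unadjusted p of 0.0020 and an edgeR adjusted p of 0.402 (0.00726 to 0.928 over 18 alternatives, the lowest from DESeq2).

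Cdk4 had 1120.1, 759, 793, 788 and 1034 CPM in yellow libraries at E13, in the same order of replicates. Maternal libraries had 1546, 1553, 1326, 1631 and 1552 CPM, and paternal ones 1542, 1476, 1282, 928 and 1516 CPM. All yellow libraries lay below all maternal ones, and paternal replicate 4 alone reached into the yellow range. The log2 difference was 0.62 (SE 0.20, edgeR adjusted p = 0.564, 0.0189 to 0.909 over alternatives).

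Cdk6 had 19.5, 0, 12.9, 13.5 and 55.7 CPM in yellow libraries at E13, and its maternal libraries had 95.9, 186, 123, 145 and 163 CPM. Paternal libraries had 39.9, 116, 232, 80.4 and 88.8 CPM, so that only paternal replicate 1 fell below the highest yellow level. The log2 difference was 2.53 (SE 1.05, edgeR adjusted p = 0.722, 0.0358 to 0.909 over alternatives). The yellow library at 0, replicate 2, had 9655 genes with a count and 40.9% of its unique reads in no annotated gene, and the study did not use it. Without E13 replicate 2 the Cdk6 difference was 1.82 (adjusted p = 0.531). Ccne1 ran from 0.517 to 27.5 CPM in yellow (median 9.48), from 8.21 to 95.9 CPM in maternal (median 34.8) and from 9.65 to 86.9 CPM in paternal libraries (median 37.2), with a difference of 2.53 (SE 1.21, 0.722). Cdk2 had a median of 10.6 CPM in yellow, 10.7 in maternal and 21.9 in paternal libraries and a difference of 2.76 (SE 1.55, 0.756).

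Rb1 was the one member with a negative value at E13. It had a median of 121 CPM in yellow, 124 in maternal and 34.3 in paternal libraries, with a log2 difference of -0.97 (SE 0.45, edgeR adjusted p = 0.722). By the strand-summed count the Rb1 difference was -0.26 (0.960).

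At E16, Cdk6 had a higher value in singly coloured than in yellow cells in 7 of 7 embryos, against 0.445% of the genes tested. It ran from 0 to 121 CPM in yellow (median 31.0), from 106 to 996 CPM in maternal (median 158) and from 55.0 to 214 CPM in paternal libraries (median 97.1). Yellow replicates 1 and 3 lay above the lowest paternal library, and the other 5 yellow libraries lay below every singly coloured one. The log2 difference was 2.47 (SE 0.72, unadjusted p = 0.0028, edgeR adjusted p = 1) and 2.17 without E16 red replicate 5, and DESeq2 gave an adjusted p of 0.00186 (0.00186 to 1 over 20 alternatives). It was 1.19 in replicates 1 to 3 and 3.82 in replicates 4 and up. The yellow library of replicate 7, at 0 CPM, had 7858 genes with a count and 44.1% of its unique reads in no annotated gene, and the study did not use it. With only the libraries that the study used, the Cdk6 difference was 1.79 (adjusted p = 0.713), with 4 of 4 embryos higher, against 5.60% of the genes. DESeq2 called 69 genes (0.639%), 25 of them higher (0.232%), and edgeR none of 10794, with 258 genes and Cdk6 alone among the members at an unadjusted p under 0.05.

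Ccnd2 at E16 ran from 45.8 to 116 CPM in yellow (median 79.5), from 71.2 to 309 CPM in maternal (median 115) and from 22.4 to 238 CPM in paternal libraries (median 119.8). Singly coloured cells were higher in 5 of 7 embryos, with a log2 difference of 0.86 (SE 0.46, edgeR adjusted p = 1). Without E16 red replicate 5, the library at 309 CPM, the Ccnd2 difference was 0.56. Cdk4 had medians of 710.0, 722 and 950.5 CPM, was higher in 5 of 7 embryos, and differed by 0.40 (SE 0.22, 1). Ccne1 and Rbl1 had too few counts at E16 for the test. Ccne1 was at 0 in 11 of 21 E16 libraries.

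**Figure D4:**
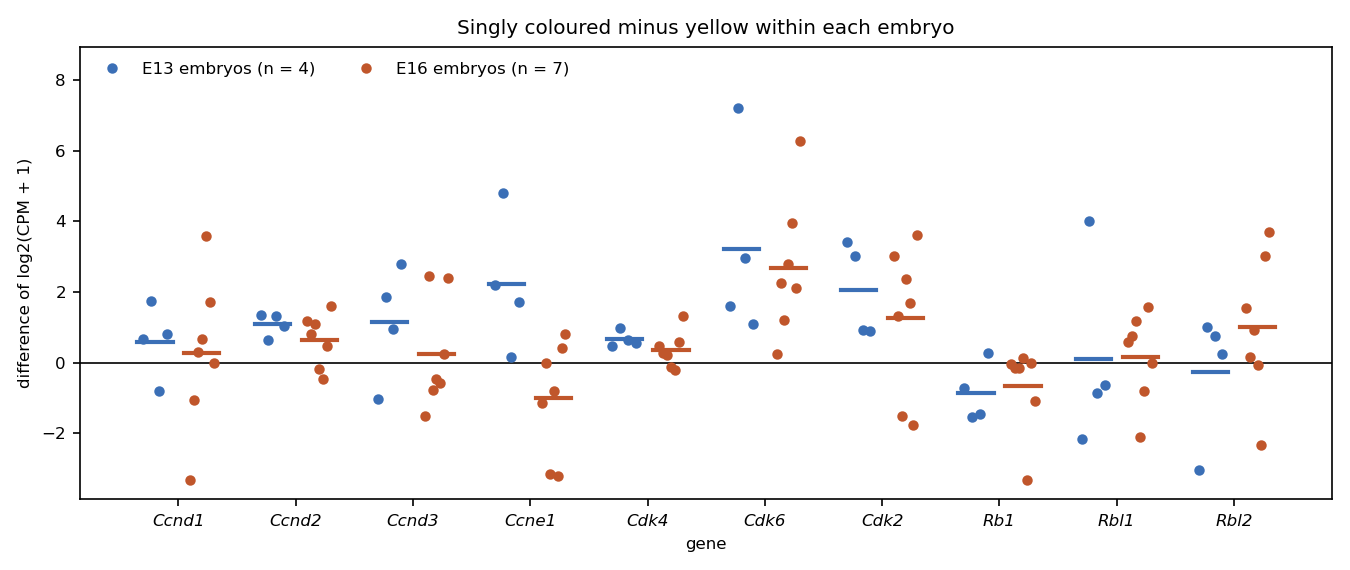
Each point is an embryo with all 3 colours (4 at E13, 7 at E16), the y axis is the mean log2(CPM + 1) of its maternal and paternal libraries minus that of its yellow library, and a dash is the mean over embryos. For Cdk6 all 11 points lie above 0, and for Ccnd2 and Cdk4 all 4 E13 points do.

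Markers moved along this contrast as well. At E13 the summed radial glia markers were higher in singly coloured cells in 4 of 4 embryos, by 0.75 on the log2 scale, intermediate progenitor markers in 3 of 4, by 0.90, and projection neuron markers in 0 of 4, with a mean difference of -0.53. Cajal-Retzius, microglia and red blood cell markers were likewise higher in none of the 4 (-1.23, -4.23 and -2.19). Markers of other cell types also had higher means in singly coloured cells: interneurons (3 of 4, 0.78), endothelium (3 of 4, 1.63) and meninges (2 of 4, 1.80). Pericyte and oligodendrocyte precursor markers were higher in 2 of 4 each (-0.25 and -0.0013). At E16 radial glia markers were higher in 6 of 7, by 0.54, intermediate progenitor markers in 6 of 7, by 0.43, projection neuron markers in 2 of 7 (-0.13) and Cajal-Retzius markers in 2 of 7 (-1.90). Microglia markers were higher in 3 of 7 (-1.29) and red blood cell markers in 4 of 7 (-0.58). Interneuron markers were higher in 5 of 7 (0.50) and meningeal markers in 4 of 7 (0.44). Endothelium (0.13), oligodendrocyte precursor (0.69) and pericyte markers (-0.84) were higher in 2 of 7 each. Their part in the member differences was not tested. Among the other pathway genes none passed in either comparison. The smallest p values at E13 belonged to Mcm2 (log2 difference 1.30), Mcm7 (1.06) and Rrm2 (1.42), and at E16 to Usp2 (-3.45), the inhibitor gene Cdkn1c (-1.48) and the kinase gene Gsk3b (0.67).

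The third comparison set paternal against maternal disomy of chromosome 7. Cdkn1c had a median of 118 CPM in maternal and 12.2 CPM in paternal libraries at E13, and of 80.9 CPM and 0 at E16, with log2 differences of -3.66 (SE 1.33) and -6.49 (SE 1.33, edgeR adjusted p = 0.227). Cdkn1c itself did not pass the threshold at either age, so a gene that misses it here may still differ. Ccnd1 lies 1.47 Mb from Cdkn1c on distal chromosome 7, and Ccne1 lies 105 Mb from it on the same chromosome. Neither passed the threshold at an age where it was tested.

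Ccnd1 had 15.8, 0, 14.0, 60.4 and 16.9 CPM in the maternal libraries of replicates 1, 2, 3, 4 and 6 at E13, and 32.9, 16.6, 2.10, 21.3 and 45.5 CPM in the paternal ones. Paternal cells were higher in 3 of 5 embryos and the ranges overlapped, with a log2 difference of 1.29 (SE 1.66, edgeR adjusted p = 1). By the strand-summed count it was -0.13, with 2 of 5 higher, and its sign turned in 3 of 18 alternatives. At E16 Ccnd1 ran from 0 to 77.9 CPM in maternal (median 0.423) and from 0 to 6.71 CPM in paternal libraries (median 0.800). Paternal cells were higher in 3 of 7 and lower in 3 of 7 embryos, the last having 0 in both. The difference was 0.78 (SE 2.01, 1), 2.66 without E16 red replicate 5, and -3.75 without the block. Its sign was opposite to the mean of the within-embryo log2(CPM + 1) differences, -1.03. Of the libraries, 4 of 7 maternal and 5 of 7 paternal ones had 3 counts or fewer.

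Ccne1 at E13 had 8.41, 34.8, 8.21, 95.9 and 39.7 CPM in maternal and 86.9, 49.5, 32.4, 9.65 and 37.2 CPM in paternal libraries. Paternal cells were higher in replicates 1, 2 and 3 and lower in 4 and 6, the replicates in which the colours of the directions are exchanged. The log2 difference was 0.95 (SE 1.15, edgeR adjusted p = 1), 1.64 within replicates 1 to 3 and -1.31 within replicates 4 and up. At E16 it was at 0 in 4 of 7 maternal and 5 of 7 paternal libraries.

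Outside chromosome 7, Rb1 and Cdk4 were lower in paternal cells in 5 of 5 embryos at E13, 2 of 10 members against 3.15% of the genes tested. By the strand-summed count neither was, and the count was 0 of 10, against 3.30%. Rb1 had 45.0, 124, 158, 69.5 and 257 CPM in maternal and 20.8, 70.2, 34.3, 26.9 and 116 CPM in paternal libraries. The ranges overlapped between embryos while each embryo moved the same way, and the log2 difference was -1.27 (SE 0.48, unadjusted p = 0.0201, edgeR adjusted p = 1, 0.160 to 1 over 18 alternatives). By the strand-summed count Rb1 had -0.33 and was lower in 3 of 5. Cdk4 differed by -0.14 (SE 0.20), and in the 5 embryos by between -0.81 and -0.0043 on the log2(CPM + 1) scale. By the strand-summed count Cdk4 was lower in 4 of 5, with a difference of 0.010 in replicate 1. For Ccnd2 the difference was -0.02 (SE 0.27) at E13 and -0.22 (SE 0.53) at E16.

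Across all genes edgeR called 0 of 11786 (0%) at E13 and 3 of 10794 (0.0278%) at E16, with no member among them. At an unadjusted p under 0.05 there were 264 genes and 1 member, Rb1, at E13, and 249 genes and 0 members at E16. DESeq2 called 217 genes (1.84%) at E13 and 62 (0.574%) at E16, and no member. The SE of the disomy difference was 0.20 to 0.53 on the log2 scale for Cdk4 and Ccnd2 at either age, and 1.15 or more for Ccnd1, Ccnd3, Cdk2, Rbl1, Rbl2 and Ccne1 wherever they were tested. No other pathway gene passed. The smallest p values belonged to Cdkn1c, Ccnh (log2 difference -0.76) and Lin52 (-2.69) at E13, and to Cdkn1c, Cdc6 (8.29) and Mcm7 (1.08) at E16. The levels behind these differences are not given here, so their size is not interpreted.

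**Figure D5:**
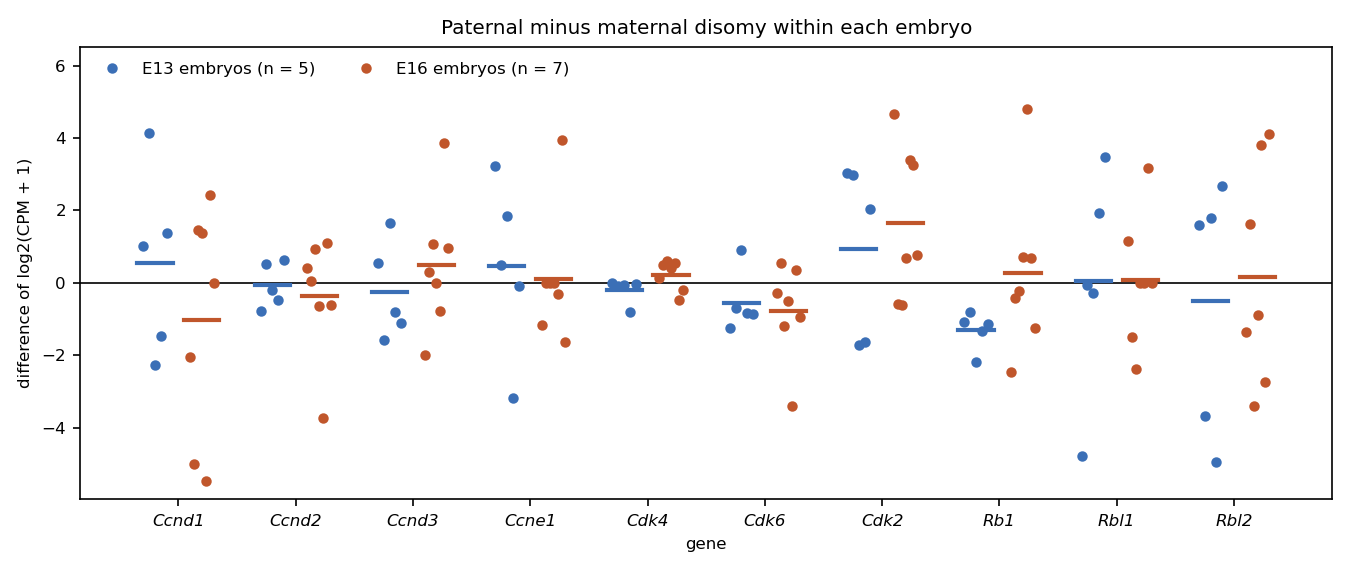
Each point is an embryo (5 at E13, 7 at E16), the y axis is log2(CPM + 1) in its paternal library minus that in its maternal library, and a dash is the mean over embryos. Points of Ccnd1 and Ccne1, the members on chromosome 7, lie on both sides of 0 at either age, while for Rb1 all 5 E13 points lie below 0 by the unstranded count plotted here.

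Whether these differences changed with age was tested as an interaction. For singly coloured against yellow, edgeR called 1 of 11472 genes (0.00872%), no member, with 460 genes and 1 member at an unadjusted p under 0.05, and DESeq2 called 175 genes (1.53%) and no member. That member was Ccne1, with a change of the difference of -5.57 on the log2 scale (SE 2.31, unadjusted p = 0.0235, edgeR adjusted p = 1, 0.0931 to 1 over 24 alternatives). Its E16 side rests on few reads, since Ccne1 had 3 counts or fewer in 16 of 21 E16 libraries and was at 0 in 11. At E16 alone it had too few counts to be tested. The Ccnd2 difference changed by -0.21 (SE 0.58), that of Cdk4 by -0.23 (SE 0.30) and that of Cdk6 by -0.06 (SE 1.22). For disomy, edgeR called 0 genes (0%) and no member, with 291 genes and 0 members at an unadjusted p under 0.05, and DESeq2 called 174 genes (1.52%) and no member.

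Lastly, each member was correlated with 11472 genes over the 36 libraries, after taking out the mean of each age, as a description. The points share embryos, depth and cell makeup. Cdk2 was most like Hist1h3e (Pearson r = 0.71), Lockd (0.70) and E2f1 (0.66). Ccnd2 was most like Tuba1b (0.67), Ckb (0.65) and Eno1 (0.64), and Cdk4 was most like Cct5 (0.78), Lsg1 (0.76) and Uck1 (0.73). Cdk6 followed Glg1, Ndufs7 and Trnau1ap (0.81 each), and Rb1 followed Ube2d3 (0.83), Fam49b (0.82) and Wdr47 (0.82). The leading gene for Ccne1 was Txnip (0.67), for Ccnd1 A930003O13Rik (0.68), for Ccnd3 Rcan3 (0.70), for Rbl1 Gm29260 (0.71) and for Rbl2 Zfp422 (0.65). Among the members themselves the highest value was that of Cdk4 with Cdk6 (0.57), then Cdk6 with Ccnd2 (0.53), and the lowest was that of Ccnd1 with Rbl2 (-0.40).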

How the data were processed

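The authors aligned the Smart-Seq2 reads with STAR 2.5.0c (GRCm38, Gencode M16), retained those that aligned uniquely, and deposited per library a table of raw counts per gene with an unstranded column and 2 stranded ones. SAMtools 1.8 and bedtools 2.26.0 are also named in the submitters' processing notes. The unstranded counts were used, and the sum of the stranded counts as an alternative added after seeing the data. Of 53379 gene identifiers, 53274 matched the annotation at hand. Libraries under 40% uniquely aligned reads were left out. CPM scales gene counts, and TPM scales counts divided by merged exon length, to a library total of 1e+06. Within-embryo differences use log2(CPM + 1).

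The members and gene lists were chosen with earlier results of these data known. Genes with a mean count of 10 or more entered edgeR 4.0.16 (R 4.3.3) with TMM scaling (quasi-likelihood test, Benjamini-Hochberg over all genes, threshold 0.05). The SE given beside a log2 change is its size divided by the square root of the F value of that test, not a fitted standard error. Ages were compared on embryo sums. Colours and disomies were compared with the embryo as a block, as in the study's methods, and age differences as an interaction. Per the labels each replicate is a single individual, so libraries of 1 age with the same number were taken as 1 embryo. The pairing rests on the labels: deviations of same-number libraries had a mean correlation of just 0.044 at E13 and 0.029 at E16 (lowest pair -0.038), against -0.0091 and -0.0035 for other pairs, too weak to show it. Alternatives were DESeq2 1.42.0, RLE normalisation, no filter, all 39 libraries, the 32 libraries of the study, subsets by state or replicate set, other blocks, leaving out each embryo, and E16 red replicate 5 left out. The fits were also run on simulated counts without an embryo effect, with changes placed only in genes of higher mean count. That run cannot show how the fits behave for members with few counts. Fitted changes were named for all members by age and, elsewhere, for members with an unadjusted p under 0.1, for those on chromosome 7 in the disomy comparisons, and for members that those results turned on. Pathway genes named were those past the threshold, at most 4 a list, or the 3 with the smallest p where none passed. Likeness used log2 CPM with a prior count of 2 and named the leading 1 to 3 genes. Tables of the study's own differential tests were not used.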

Additional observations from a re-analysis of the deposited data

Results flagged for a closer look

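In 16 of 60 groups of libraries (10 genes, 2 ages, 3 colours), the highest library lay farther from the nearest other, relative to the whole range, than Dixon's critical value for its size (threshold 0.05). For normally distributed values chance marks about 1 in 20 groups. These levels are skewed, with many at 0, and the rate for them was not computed. E16 red replicate 5 was marked for Ccnd1 (77.9 CPM, other red libraries at most 1.78) and Cdk6 (996 CPM, others at most 183). E16 red replicate 6 was marked for Cdk4 (1580.5 CPM, others at most 1017) and Rbl2 (71.1 CPM, others at most 30.2). That library had 9210 genes with a count, and the study used neither it nor E16 red replicate 5. E16 red replicate 1 was marked for Cdk2 (40.1 CPM, others at most 8.46) and Rbl1 (1.24 CPM, 3 counts, others at 0). For Ccne1, E16 green replicate 6 (14.5 CPM, others at most 1.23) and E16 red replicate 7 (2.11 CPM, 1 count) were marked. For Cdk2, E13 green replicate 6 (84.5 CPM, others at most 11.7) and E16 yellow replicate 6 (9.44 CPM) were. Rb1 stood out in E13 red replicate 6 (257 CPM, others at most 70.2), Ccnd1 in E16 green replicate 2 (31.1 CPM) and Ccnd3 in E16 yellow replicate 1 (16.4 CPM). Rbl1 stood out in E13 red replicate 2 (14.9 CPM) and E16 yellow replicate 4 (3.28 CPM, 9 counts), and Rbl2 in E16 green replicate 7 (53.1 CPM). Red and green each mix maternal and paternal disomy over replicates. Ccnd2 had no such library.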

How the results depend on the processing

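Of 546 pairs of a named log2 change and an alternative, 25 changed sign, 14 lost and 5 gained a call. Sign and call status stayed the same throughout for 11 of 24 changes, and none of those 11 was called in the main fit. The lost calls were those of Ccnd2 (4 of 28 alternatives) and Ccne1 (10 of 28), both for E16 against E13. Causes were not tested. Subsets held fewer samples and also differed in state or replicate set, and these were not separated. For E16 against E13 the 524 called genes became 1267 (DESeq2), 49 (maternal), 104 (paternal), 17 (yellow libraries only), 131 (replicates 1 to 3) and 38 (replicates 4 and up), and 297 to 574 when 1 embryo or E16 red replicate 5 was left out, lowest without E13 replicate 4, and 321 to 343 without E13 replicates 1 and 6 or E16 replicates 3 and 4. Members called fell from 2 to 0 in maternal, yellow, replicates 1 to 3, and replicates 4 and up, to 1 in paternal libraries and with the replicate block, and were 1 to 2 with an embryo left out. The sign turned for Ccnd1 (maternal, 0.076), Rb1 (paternal 0.25, replicates 1 to 3 0.13) and Rbl2 (all 39 libraries 0.065, maternal 0.48, embryos with all 3 colours 1.01, paternal 0.26, strand-summed 0.43, strand-summed in the study's libraries 0.32, replicates 4 and up 0.61, leaving out an embryo -0.50 to 0.22).

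For singly coloured against yellow at E13, the 0 calls became 547 (DESeq2, 3 members), 23 (2 sets as block), 6 (all 39 libraries), 7 (the study's libraries), 26 (no filter), 10 (no replicate block), 6 (strand-summed, the study's libraries), 2 (replicates 4 and up) and 0 to 5 with an embryo left out, 5 without E13 replicate 2, and Rb1 turned to 0.10 (strand-summed, the study's libraries). At E16 the 0 calls became 69 (DESeq2, 1 member) and 3 (no filter). For disomy, the 0 calls at E13 became 217 (DESeq2), 3 (no filter) and 0 to 1 (1 without E13 replicate 4), and the 3 at E16 became 62 (DESeq2), 11 (no filter), 0 (replicates 4 and up) and 1 to 3, with 1 without E16 replicate 1, 2, 3, 4 or 7. Ccnd1 turned at E13 to -0.13 (strand-summed), -0.14 (strand-summed, the study's libraries) and -0.072 to 2.28 (negative without E13 replicate 2), and at E16 to -3.72 (2 sets as block), -3.75 (no replicate block), -2.09 (replicates 1 to 3) and -1.40 to 2.66 (negative without E16 replicate 3, 4 or 6). Ccne1 turned to -1.31 at E13 (replicates 4 and up). For the age difference of singly coloured against yellow, the 1 call became 175 (DESeq2), 0 (green against red added), 25 (no filter), 0 (no replicate block) and 0 to 1, and for that of disomy the 0 calls became 174 (DESeq2) and 4 (no filter). The block changed no other call of a member.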
